A study of Mus musculus with 2 samples.

Results

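The constant genes of the immunoglobulin light chains were followed cell by cell in B cells of the mouse heart. Igkc encodes the constant part of every kappa chain, and the Iglc genes encode the constant parts of the lambda chains. Iglc4 had few UMIs and is described apart, and the 4 genes followed here are Igkc, Iglc1, Iglc2 and Iglc3. They are 4 of 31053 genes in the tables and were read in 2077 neonatal and 3611 adult cells, chosen as droplets with at least 2000 gene UMIs (unique molecular identifiers, each standing for 1 captured transcript), at most 10% of them from mt- genes, and at least 1 UMI of Cd79a, the signalling partner of the B cell receptor. No light chain gene is named in that choice, although light chain UMIs count toward the total.

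Both libraries came from wild-type C57BL6/J mice, with 6 hearts pooled in each. The neonatal library was made at 2 weeks of age (15 days in its title) from pooled males and females, and the adult library at 8 weeks from males. Live B cells were sorted from digested hearts on the same day, and transcripts were counted at their 3′ ends, so a UMI counts a transcript whatever its length. With 1 library for each age there is no replicate check, so age, sex and library cannot be told apart. Every interval printed is a 95% interval that covers counting error only. Those of levels and ratios take each UMI as an independent draw and are too narrow where UMIs of a gene cluster in cells.

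A B cell normally makes light chain from a single locus. The kappa locus is usually rearranged first, and a cell whose kappa genes fail, or whose receptor binds self, may go on to the lambda locus, which in the mouse holds very few genes. Allelic exclusion and isotype exclusion are the names for the result, a cell that displays a single light chain, although transcription of unrearranged constant genes is known in B lineage cells.

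The cells carried the markers of their label. Cd79b was present in 99.5% of neonatal and 99.4% of adult cells, and Ms4a1, which encodes the B cell surface protein CD20, in 97.4% and 95.6%. The 4 cardiac muscle markers summed to 1.52 and 1.73 CPM (counts per 1e6 gene UMIs) and the 5 T cell markers to 10.5 and 13.4 CPM, while the 5 macrophage markers summed to 82.3 CPM in neonatal and 12.3 CPM in adult cells. The cells held 16403180 gene UMIs in the neonatal library (median 6000 a cell, range 2045 to 117407) and 34623240 in the adult library (median 6131, range 2034 to 139915). The libraries shared barcodes: 61 neonatal and 45 adult cells had a barcode with at least 500 gene UMIs in the other library, and 2 barcodes were cells in both.

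The reference sequence was consulted first, because a light chain class can be no better than the assignment of reads to these genes. In the GENCODE annotation of mouse build GRCm38 (the mm10 of the labels), Igkc (ENSMUSG00000076609) is a single exon at chr6:70726435-70726966 on the plus strand. The lambda constant genes lie on the minus strand of chromosome 16, Iglc1 (ENSMUSG00000105906) at chr16:19061618-19062071, Iglc3 (ENSMUSG00000105547) at chr16:19065230-19065681 and Iglc2 (ENSMUSG00000076937) at chr16:19198396-19200351. The last 120 coding bases before the stop codon are shown because they lie toward the 3′ end, which this assay reads. They span chr16:19065368-19065487 for Iglc3, chr16:19198539-19198658 for Iglc2, chr16:19061755-19061874 for Iglc1 and chr6:70726635-70726754 for Igkc, printed 5′ to 3′ on the strand of the gene. Capitals mark bases that differ from Iglc3, aligned without gaps. Igkc is shown in lower case throughout.
Iglc3: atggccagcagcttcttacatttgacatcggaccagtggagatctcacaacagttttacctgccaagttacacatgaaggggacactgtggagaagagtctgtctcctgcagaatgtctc
Iglc2: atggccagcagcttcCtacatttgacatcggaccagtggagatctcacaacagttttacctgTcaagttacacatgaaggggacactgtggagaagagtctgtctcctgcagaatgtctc
Iglc1: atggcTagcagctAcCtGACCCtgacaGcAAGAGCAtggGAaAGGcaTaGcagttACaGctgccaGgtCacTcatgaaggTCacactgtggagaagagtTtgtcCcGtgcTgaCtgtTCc
Igkc: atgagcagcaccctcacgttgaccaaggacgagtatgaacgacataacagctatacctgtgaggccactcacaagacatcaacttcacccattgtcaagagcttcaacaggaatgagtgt
In this stretch Iglc2 differed from Iglc3 at 2 bases, Iglc1 at 38 and Igkc at 90.

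Kappa and lambda reads were therefore far apart, and Iglc1 was clear of the other lambda genes, while Iglc2 and Iglc3 were close. Over their coding parts Iglc2 and Iglc3 were identical at 303 of 314 bases. No window of 91 bases, a length taken here for such reads, was shared unchanged between any pair of the genes. Every 91-base window of Igkc differed from every lambda window by at least 38 bases, and every window of Iglc1 differed from Iglc2 and Iglc3 by at least 19. By contrast 103 of 362 windows of Iglc3 came within 2 differences of Iglc2. With windows of 50 bases, 43 of 403 Iglc3 windows were shared unchanged with Iglc2 and 50.9% came within 2 differences. The read length is not given in the sources used here, so the division of UMIs between Iglc2 and Iglc3 is uncertain, and the lambda sum of the 3 genes is used wherever the class of a cell is at issue.

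Igkc was the most abundant of the 4 transcripts in both libraries and nearly the same in both, whereas the lambda genes were lower in the adult library. In the few cells with at most 5% mt- UMIs, 60 neonatal and 156 adult, Iglc2 and Iglc3 were instead higher in the adult library (log2 0.23 and 0.41). Igkc stood at 9817 CPM in neonatal and 9990 CPM in adult cells, a log2 ratio of adult over neonatal of 0.03 (0.02 to 0.03). Iglc1 went from 1685 to 924 CPM, a log2 ratio of −0.87 (−0.89 to −0.84). Iglc3 went from 867 to 629 CPM (log2 −0.46) and Iglc2 from 1596 to 1342 CPM (log2 −0.25). The lambda sum was 4148 CPM in neonatal and 2896 CPM in adult cells (log2 −0.52).

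Of the 4 genes only Iglc1 passed a 1.5-fold difference, against 20.1% of the 10703 genes with at least 50 UMIs. In that direction, higher in the neonatal library, 12.2% of all genes passed, and 7.82% passed in the other. Over the 17017 genes with at least 1 UMI the shares were 37% in either direction, 27.3% higher in neonatal and 9.73% higher in adult cells, and the 10703 genes had a median log2 ratio of −0.13. The size of the Iglc1 difference depended on how cells were weighed. Its log2 ratio was −1.25 when each cell was thinned to 2000 UMIs at random, so that all cells counted alike, and −0.58 in cells with at least 5000 UMIs. It was −1.03 without droplets holding at least 3 UMIs of Jchain, the joining chain of secreted antibody, and 1 of those, an adult cell, held 2858 Iglc1 UMIs or 8.93% of the adult total. Without the cells whose barcodes are shared between libraries, Iglc1 had −0.96 and Igkc 0.15.

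Per cell, Igkc had a median of 59 UMIs in neonatal and 58 in adult cells, with central 90% ranges of 2 to 166 and 9 to 248.5. Iglc1 had a median of 5 UMIs in neonatal cells and 1 in adult cells. The medians of Iglc2 were 8 and 6, and those of Iglc3 5 and 3. After thinning, an Iglc1 UMI was found in 70.9% (68.9 to 72.8%) of neonatal cells, and in 39.96% (38.4 to 41.6%) of adult cells, while Iglc2 was found in 76.8% and 77.2%. As sequenced, 89.9% of neonatal and 65.4% of adult cells had an Iglc1 UMI, and 88.8% (87.4 to 90.2%) and 94.0% (93.1 to 94.7%) an Iglc2 UMI.

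A few cells held a large part of the Igkc UMIs. The 5 highest cells held 11.5% of neonatal and 10.7% of adult Igkc UMIs. The 2 highest neonatal cells had 8661 and 7053 Igkc UMIs, with 531 and 775 Jchain UMIs. The 4 highest adult cells had 9421, 9348, 8249 and 7723 Igkc UMIs, up to 37.8% of the cell's transcripts, with 665 to 1021 Jchain UMIs. In the adult cell with 8249 the leading heavy chain gene was Ighg2c, with 3271 of the 3340 Ighg2c UMIs of all adult cells. In the others it was Ighm. These 4 adult cells still held lambda UMIs, with 47 to 176 of Iglc2 and 17 to 101 of Iglc1 each.

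Each cell was then classed by the lambda share of its light chain UMIs, where it had at least 10. Cells under 10% lambda were called the kappa class, cells over 90% the lambda class, and cells between, with at least 10 UMIs of each chain, the dual class. Cells between with fewer UMIs of the lesser chain were called low mixed. The dual class was the largest in both libraries, with 1517 neonatal cells (73.0%, 71.1 to 74.9%) and 1776 adult cells (49.2%, 47.5 to 50.8%). The kappa class held 170 neonatal cells (8.18%) and 916 adult cells (25.4%), and the low mixed class 229 (11.0%) and 767 (21.2%). The lambda class held 152 neonatal cells (7.32%, 6.23 to 8.52%) and 148 adult cells (4.10%, 3.48 to 4.80%). Only 9 and 4 cells had too few UMIs to class. Without shared barcodes the dual class was 72.5% and 48.6%, and the lambda class 7.49% and 4.15%.

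**Figure D1:**
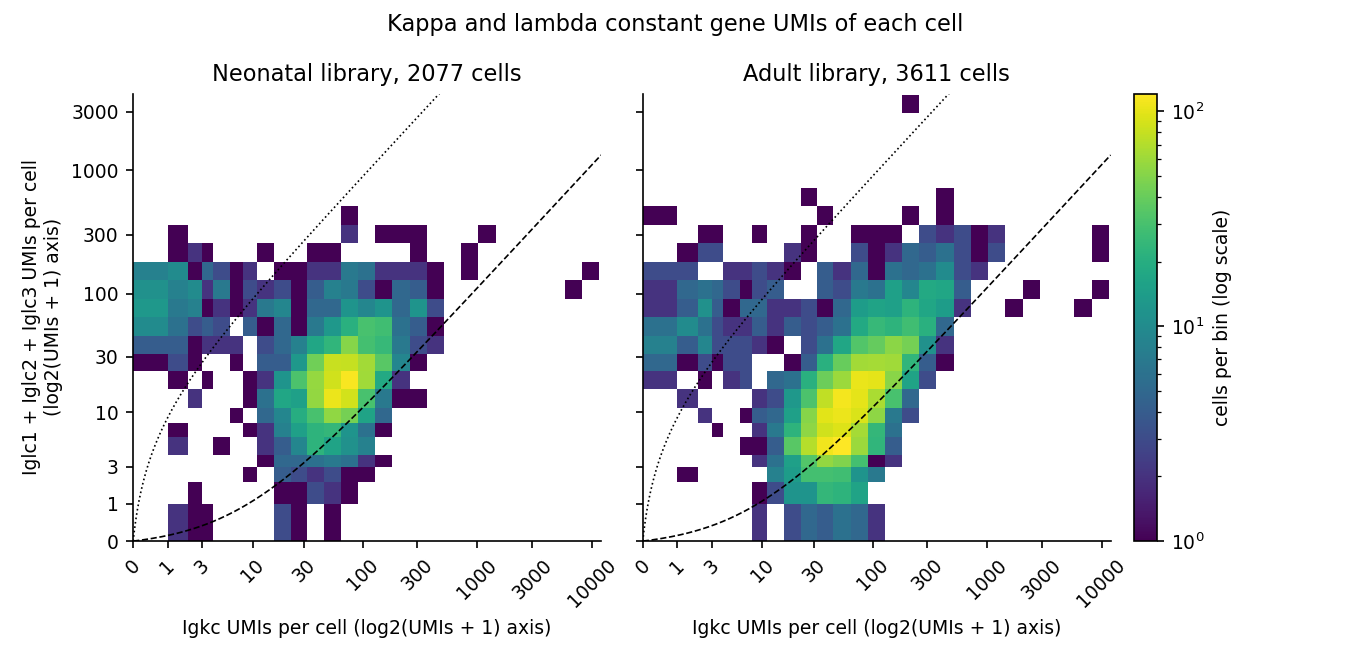
Igkc UMIs (x axis) against summed Iglc1, Iglc2 and Iglc3 UMIs (y axis) of each cell, both on a log2(UMIs + 1) axis, with colour for the number of cells in a bin. Cells below the dashed line are under 10% lambda and cells above the dotted line are over 90% lambda. Most cells form a single cloud that the dashed line crosses, and the lambda class stands apart at the left.

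The cells fell into a broad group led by kappa and a narrow group at 95 to 100% lambda, with other cells spread between them. The 10% line ran through the broad group rather than between groups. The median lambda share was 24.1% in neonatal and 16.0% in adult cells. The fullest 5% bin was 15 to 20% lambda in the neonatal library, with 337 cells, and 10 to 15% in the adult library, with 745. Just below and just above the 10% line lay 65 and 98 neonatal cells and 299 and 287 adult cells, counted over 2 percentage points on either side. The 90% line was thinly peopled, with 7 and 2 neonatal cells and 12 and 11 adult cells over the same width. Between 95% and 100% there were 135 neonatal and 112 adult cells, and between 50% and 90% there were 171 and 139.

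**Figure D2:**
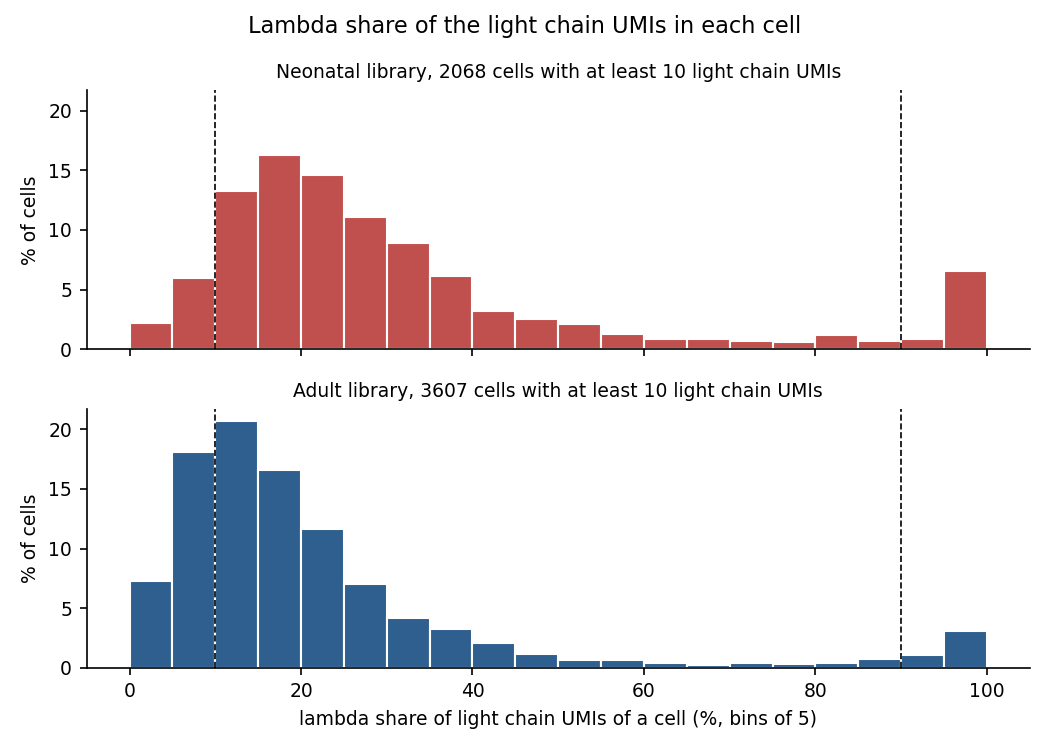
Percent of cells (y axis) by the lambda share of their light chain UMIs in bins of 5% (x axis), for 2068 neonatal and 3607 adult cells with at least 10 light chain UMIs. Dashed lines mark 10% and 90%. Each library has a broad main group below 50% and a narrow second group at 95 to 100%, and the adult main group lies to the left of the neonatal one.

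Since that distribution was seen, cells were also divided at 50%. The kappa-led group held 1745 neonatal (84.0%) and 3320 adult cells (91.9%), and the lambda-led group 323 (15.6%) and 287 (7.95%). Of the dual class, 1360 of the 1517 neonatal cells and 1670 of the 1776 adult cells were kappa-led. Adult dual cells were deeper than adult kappa class cells, with medians of 9955 and 4649 gene UMIs, while the neonatal medians were close, at 6267 and 5867. With every cell thinned to 2000 UMIs the dual class fell to 17.2% of neonatal and 6.84% of adult cells, because fewer cells then reached 10 UMIs of each chain. Asking for 30 UMIs of each chain left 21.8% and 18.2%.

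Nearly all kappa-led cells also held lambda transcripts. Their median lambda sum was 18 UMIs in neonatal and 11 in adult cells, with central 90% ranges of 4 to 58 and 2 to 79, against Igkc medians of 64 and 62. Only 5 of 1745 neonatal and 25 of 3320 adult kappa-led cells had no lambda UMI. All 3 lambda genes took part: in neonatal kappa-led cells Iglc2 stood at 1222 CPM, Iglc1 at 899 and Iglc3 at 783, and in adult ones at 1106, 505 and 585. The lower Iglc1 level of the adult library was present inside this group, with a log2 ratio of −0.83 (−0.87 to −0.80). Iglc3 had −0.42 and Iglc2 −0.14.

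Free RNA, which enters droplets from broken cells, was measured in near-empty droplets of ranks 45000 to 90000 by UMI count. Neonatal ones held on average 0.267 lambda UMIs each, and adult ones 0.283. Kappa-led cells had a mean of 22.9 and 21.1 lambda UMIs, 85.5 and 74.5 times as many. Droplets over 2000 UMIs without Cd79a or Cd79b gave a second reading. There were 11 in the neonatal library (median 6011 gene UMIs) and none had more than 1 lambda UMI. The 2 in the adult library (median 7839.5 gene UMIs) had 0 and 1. A lambda UMI was present in 5 of those 11 neonatal droplets (45.5%, 16.7 to 76.6%), against 99.7% of neonatal kappa-led cells (median 6021 gene UMIs). The droplets without Cd79a and Cd79b were picked for lacking transcripts that free RNA of B cells may also hold. Their low kappa and lambda counts may therefore be set in part by that rule.

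Cells led by lambda were a mixture. As a whole, the lambda-led group held a median of 9 Igkc UMIs in neonatal and 6 in adult cells, and its dual members and its lambda class differed by their rule. Neonatal cells of the lambda class held a median of 1 Igkc UMI and adult cells a median of 2, and the means were 1.80 and 4.49. The class rule kept Igkc under 10% of light chain UMIs, and 95 of 152 neonatal and 61 of 148 adult cells lay at 98% lambda or more. An Igkc UMI was present in 69.1% of neonatal lambda class cells (median 5066 gene UMIs) and in 8 of the 11 neonatal droplets without Cd79a and Cd79b (72.7%, 39.0 to 94.0%). In the adult library the share was 80.4%, with only 2 such droplets to compare. Igkc in the lambda class was 3.59 and 4.97 times the near-empty level. The adult value was 3.30 without Jchain droplets, since the adult cell with 2858 Iglc1 UMIs also held 227 Igkc UMIs and 267 Jchain UMIs.

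**Figure D3:**
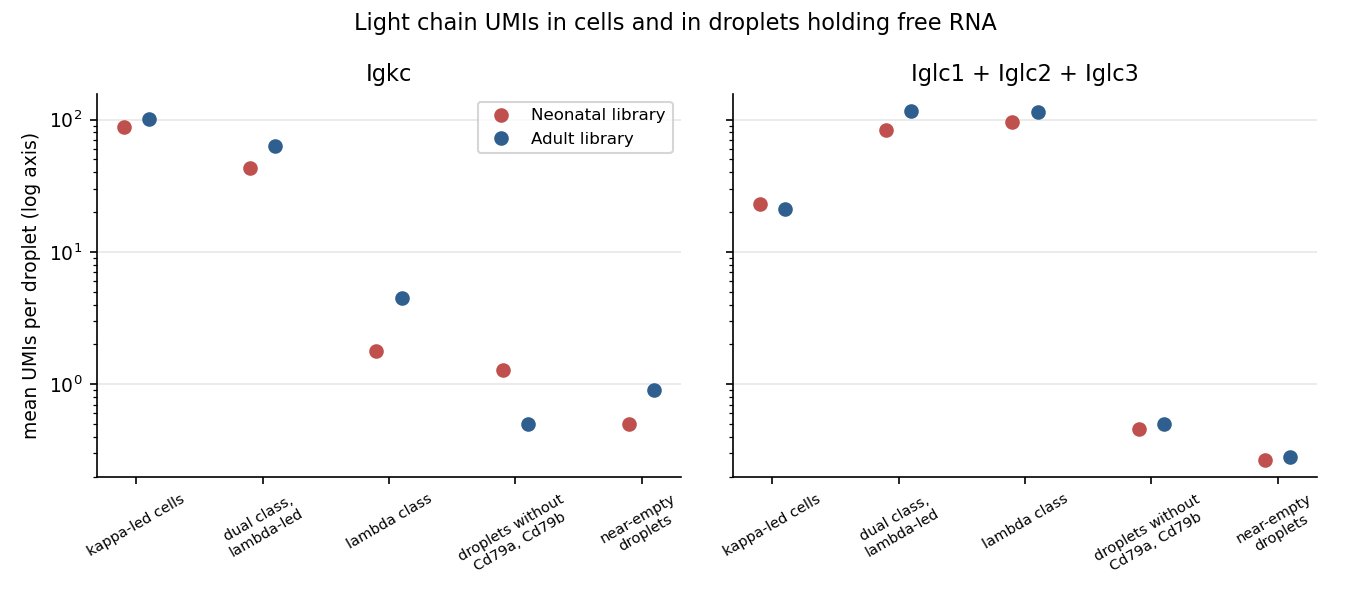
Mean Igkc UMIs (left) and mean lambda UMIs (right) per droplet on a log axis, in kappa-led cells, lambda-led dual cells, lambda class cells, droplets without Cd79a and Cd79b, and near-empty droplets of each library. Points are means over droplets with no error bar. Igkc in lambda class cells (1.80 and 4.49) is far below that of kappa-led cells, a gap that the class rules largely set. The adult mean includes 1 Jchain-rich cell with 227 Igkc UMIs. Lambda in kappa-led cells (22.9 and 21.1) lies well above the droplets without Cd79a and Cd79b.

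The division at 50% ran through cells with both chains. At 40 to 50% lambda lay 120 neonatal and 119 adult cells, which counted as kappa-led. Lambda-led dual cells numbered 157 in the neonatal library (7.56%, 6.46 to 8.78%) and 106 in the adult library (2.94%, 2.41 to 3.54%). Their median was 34 Igkc and 72 lambda UMIs in neonatal cells, and 43 Igkc and 90.5 lambda UMIs in adult cells. They were deeper than the lambda class, with a median of 7096 against 5066 gene UMIs in the neonatal library and 11667 against 5897 in the adult library. Kappa variable genes (Igkv) were seen in 35.7% and 49.1% of them, against 19.7% and 10.8% of lambda class cells and 45.4% and 42.9% of kappa-led cells. In both libraries the share in lambda-led dual cells lay nearer to that of kappa-led cells, although the lambda-led dual cells were the deepest of these sets. The class rules also bear on these shares, since the dual rule asks for a minimum of Igkc UMIs and the lambda class rule caps them. Igkv, like Igkc, counts kappa transcripts, so the Igkv shares are not a separate check on the classes. Whether they differ beyond the rules and depth was not tested.

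Droplets with 2 cells can mix a kappa and a lambda cell. The neonatal pool held both sexes, so such droplets can show both Xist, the transcript of the inactive X chromosome, and a transcript of the Y-linked genes Ddx3y, Eif2s3y, Kdm5d or Uty. In all, 80 of 2077 neonatal cells showed both (3.85%, 3.07 to 4.77%). Among them were 11 of 157 lambda-led dual cells (7.01%, 3.55 to 12.2%), 63 of 1360 kappa-led dual cells (4.63%), 2 of 152 lambda class cells (1.32%) and 1 of 170 kappa class cells (0.588%). Leaving these droplets out moved the neonatal dual class share to 72.3%. Pairs of the same sex are not seen this way, and in the adult pool of males the count was 2. Free RNA could also give both transcripts in a droplet with 1 cell, and a deeper droplet is more likely to show both. Neonatal lambda-led dual cells had a median of 7096 gene UMIs and lambda class cells 5066. The medians of kappa-led dual cells and kappa class cells were closer, at 6228 and 5867. The part of droplets with 2 cells in the dual class beyond these values was not tested. The dual class share after subtracting the mean free RNA of near-empty droplets is given in the last section. Whether free RNA gave Xist and a Y transcript together was not tested.

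Lambda class cells were mostly led by a single constant gene. Among 152 neonatal cells Iglc1 led in 89 (58.6%, 50.3 to 66.5%), and among 148 adult cells in 76 (51.4%, 43.0 to 59.6%). Iglc2 led in 49 (32.2%, 24.9 to 40.3%) and 64 (43.2%, 35.1 to 51.6%). Iglc3 led in 14 (9.21%) and 8 (5.41%). All of these intervals overlapped between the libraries. In cells with at least 5000 gene UMIs Iglc1 led in 51.9% and 44.0%. The leading gene gave a median of 85.2% of the lambda UMIs of an Iglc1-led neonatal cell and 88.8% of an adult one. For Iglc2-led cells it was 78.2% and 78.4%, and for Iglc3-led cells 80.8% and 72.8%. Summed over the lambda class, Iglc1 stood at 8095 CPM in neonatal and 8922 CPM in adult cells (log2 0.14, 0.10 to 0.18), but a single adult cell set that direction. Without the droplets holding Jchain the levels were 8174 and 6546 CPM (log2 −0.32, −0.37 to −0.27). Iglc3 was lower in the adult lambda class both ways (log2 −0.83 and −0.80).

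**Figure D4:**
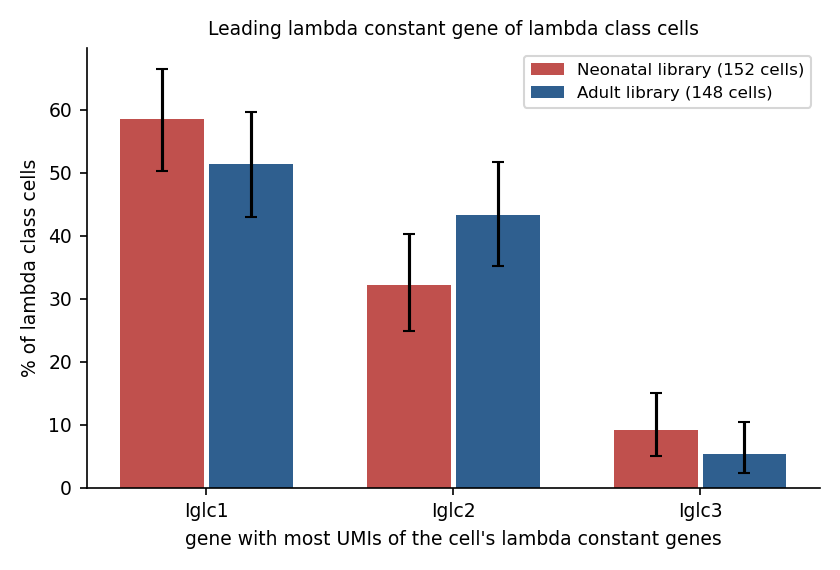
Percent of lambda class cells (y axis) by the lambda constant gene with most UMIs in the cell (x axis), for 152 neonatal and 148 adult cells, with exact binomial 95% intervals. Iglc1 led in 58.6% and 51.4% of cells, and the intervals of the libraries overlap for each gene.

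By per-cell medians, Iglc3 was low in lambda class cells led by Iglc1. There it had a median of 1 UMI in both libraries and a median per-cell level of 208 CPM in neonatal and 250.0 CPM in adult cells. In kappa-led cells its median level was 728 and 490 CPM, and in Iglc2-led cells 571 and 395 CPM. On summed UMIs the gap to kappa-led cells was smaller. Iglc3 then stood at 750 and 476 CPM in Iglc1-led cells, against 783 and 585 CPM in kappa-led cells. In Iglc2-led cells it was 1347 and 795 CPM. Iglc2, in contrast, had a median level of 1547 and 1202 CPM in Iglc1-led cells, against 1017 and 822 CPM in kappa-led cells. On the chromosome Iglc3 lies between Iglc1 and the variable gene Iglv1 (chr16:19085017-19085500), so on the minus strand the order is Iglv1, Iglc3, Iglc1, whereas Iglc2 lies beyond Iglv1. These cells were grouped by the same UMIs, so the values are a description. Whether the gene order bears on these levels was not tested, and the division of UMIs between Iglc2 and Iglc3 is uncertain.

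The lambda variable genes, few in the mouse, were sparse in these 3′ libraries. Iglv1 differed most between Iglc1-led and Iglc2-led cells. Iglv1 was seen in 34 of 89 neonatal (38.2%, 28.1 to 49.1%) and 24 of 76 adult Iglc1-led cells (31.6%, 21.4 to 43.3%). It was seen in 5 of 49 (10.2%) and 6 of 64 (9.38%) Iglc2-led cells, with intervals of 3.40 to 22.2% and 3.52 to 19.3% that lay below those of Iglc1-led cells. Among Iglc3-led cells it was seen in 2 of 14 neonatal (14.3%, 1.78 to 42.8%) and 1 of 8 adult ones (12.5%, 0.316 to 52.7%). Those intervals overlapped the ones of both other leading genes. Iglv2 was seen in 9 of 49 neonatal Iglc2-led cells (18.4%) and 7 of 89 Iglc1-led cells (7.87%), with 4 of 64 and 3 of 76 in the adult library, and the intervals overlapped. In kappa-led cells Iglv1 was found in 4.13% and 6.63%, and Iglv2 in 0.115% and 0.301%. Iglv3 was found in 6.30% and 9.82% of kappa-led cells and in 9.21% and 7.43% of lambda class cells, and the intervals of the classes overlapped.

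Vpreb3, Cr2 and Fcer2a were used as markers of B cell stage. Vpreb3 belongs to the surrogate light chain family and is high in immature and transitional B cells. Cr2 encodes the complement receptor CD21, and Fcer2a the low-affinity IgE receptor CD23, both gained as B cells mature. Vpreb3 went from 381 CPM in neonatal to 177 CPM in adult cells, while Cr2 went from 27.4 to 121 CPM and Fcer2a from 171 to 279 CPM. Cells were thinned to 2000 UMIs and split into those with 0, 1 and 2 or more UMIs of each gene. After thinning, an Fcer2a UMI was found in 26.6% of neonatal and 43.2% of adult kappa-led cells. A level of 0 can include cells whose few transcripts were missed, so the levels are not stages.

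Within kappa-led cells Iglc1 was higher with more Vpreb3 in both libraries, and the other light chain genes differed less. In neonatal kappa-led cells Iglc1 stood at 771 CPM (733 to 811) without Vpreb3, at 1068 CPM (996 to 1144) with 1 UMI and at 1349 CPM (1268 to 1434) with 2 or more. In adult kappa-led cells the levels were 357 CPM (340 to 375), 396 CPM (363 to 431) and 614 CPM (553 to 679). There the intervals at 0 and 1 UMI overlapped, and the rise lay in the 308 cells with 2 or more. Over all kappa-led cells the Spearman correlation of Vpreb3 and Iglc1 was 0.20 in neonatal and only 0.03 in adult cells. The log2 difference between the ends was 0.81 (0.69 to 0.92) in neonatal and 0.78 (0.62 to 0.94) in adult cells. For Iglc2 it was 0.03 and 0.12, for Iglc3 0.15 and 0.28, and for Igkc 0.23 and 0.04, which turned to −0.24 and −0.35 on UMIs as sequenced. At each Vpreb3 level Iglc1 was still lower in the adult library, by a log2 ratio of −1.11, −1.43 and −1.14.

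Kappa-led cells with 2 or more Fcer2a UMIs had less Iglc1 than those without in both libraries when thinned, and somewhat less Iglc2 and Igkc. In neonatal kappa-led cells Iglc1 was 1052 CPM without Fcer2a, 712 CPM with 1 UMI and 718 CPM with 2 or more (log2 −0.55, −0.74 to −0.37). In adult ones it was 410, 391 and 310 CPM (log2 −0.40, −0.58 to −0.23). There the intervals at 0 and 1 UMI overlapped (389 to 431 and 363 to 421 CPM). For Iglc2 the log2 difference was −0.19 (−0.34 to −0.04) in neonatal and −0.19 (−0.29 to −0.08) in adult cells. Igkc had −0.18 and −0.06, and Iglc3 had 0.10 and −0.02 with intervals that included 0. For Cr2 the adult Iglc1 values were 397, 364 and 311 CPM, with an interval of the log2 difference that just included 0 (−0.73 to 0.01). Across the same levels adult Iglc2 had a log2 difference of −0.39 (−0.63 to −0.17) and Igkc −0.18 (−0.24 to −0.11). The intervals between levels leave out the spread between cells. In adult kappa-led cells the variance over the mean was 31.8 for Igkc, 3.63 for Iglc1 and 2.20 for Iglc2, where counting error alone gives 1. Whether the differences between levels exceed that spread was not tested. Only 5 neonatal kappa-led cells had 2 or more Cr2 UMIs. The adult Iglc1 differences by Fcer2a and Cr2 turned to 0.24 and 0.21 on UMIs as sequenced, and those of Iglc2 to −0.03 and 0.06. There deeper cells weigh more, and a deeper cell is more likely to hold a marker UMI.

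**Figure D5:**
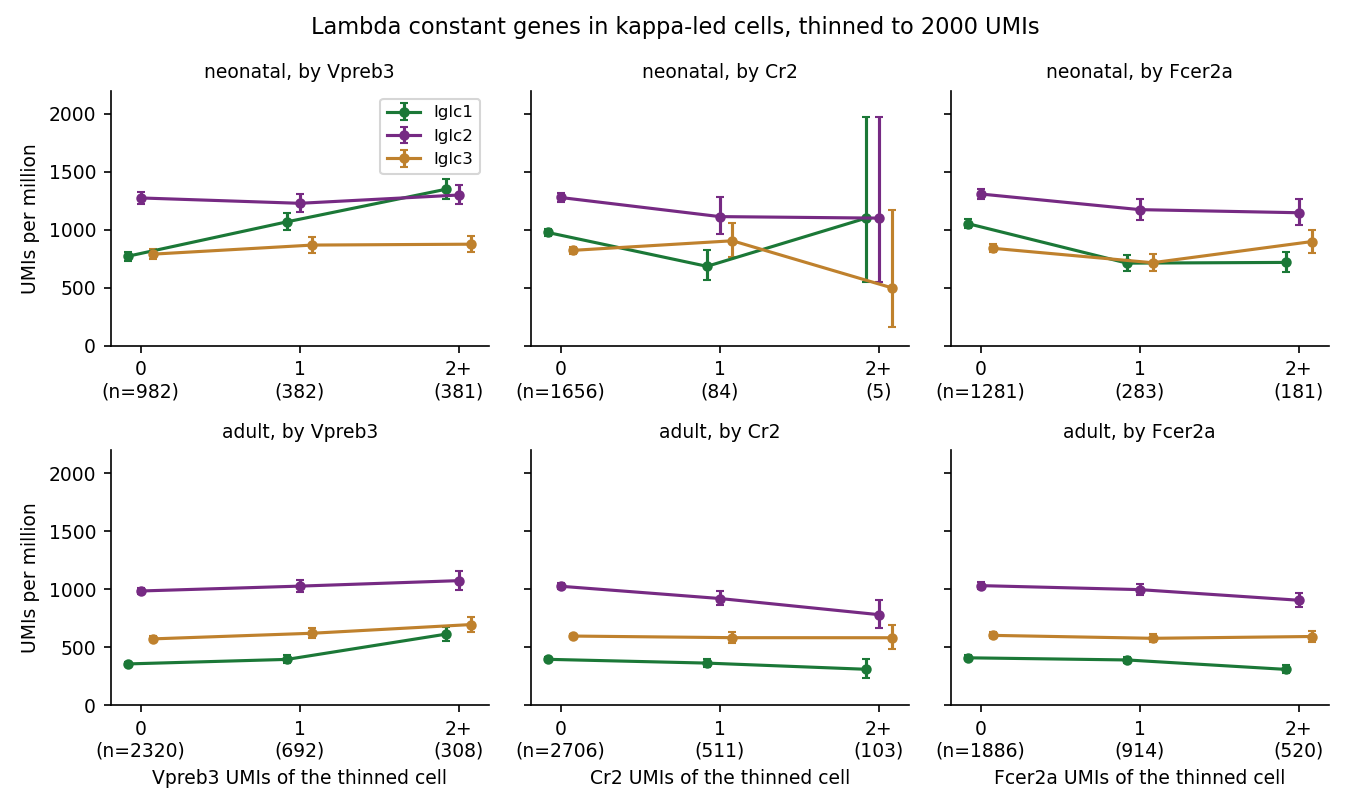
Level of Iglc1, Iglc2 and Iglc3 in CPM (y axis) in kappa-led cells thinned to 2000 UMIs, by the number of Vpreb3, Cr2 or Fcer2a UMIs of the cell (x axis, with the number of cells), neonatal above and adult below. Bars are exact Poisson 95% intervals. With Vpreb3, Iglc1 climbs from 771 to 1349 among neonatal cells and from 357 to 614 among adult cells, and Iglc2 and Iglc3 change less across the Vpreb3 levels.

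The share of lambda class cells, set on UMIs as sequenced, changed less clearly with the level of these markers. It was 6.34% (5.004 to 7.91%) of neonatal cells without Vpreb3 and 9.15% (6.70 to 12.1%) of those with 2 or more UMIs. The adult shares were 4.27%, 2.57% and 6.12%. By Fcer2a the neonatal shares were 8.12%, 3.76% and 6.80%, and the adult ones 4.43%, 4.26% and 2.55%. Intervals of neighbouring levels overlapped except between neonatal cells with 0 and 1 Fcer2a UMIs (6.81 to 9.59% against 1.96 to 6.48%). Across Cr2 levels adult shares were 4.16%, 4.19% and 1.85%.

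Light chain genes were spread unevenly among kappa-led cells, as were some other B cell transcripts. In thinned cells the variance over the mean, which is 1 for pure counting error, was 3.58 and 3.63 for Iglc1, 3.03 and 2.20 for Iglc2, and 1.43 and 1.68 for Iglc3. Igkc had the highest values of the 4 genes, 11.1 in neonatal and 31.8 in adult cells, at means of 21.9 and 21.2 UMIs. Both sets include the Jchain-rich cells described above, and in adult ones Igkc reached 37.8% of a cell's transcripts. A few such cells can raise a variance, and the Igkc values were not recomputed without them. How far the Igkc spread, and its difference between libraries, extends to the other cells was not tested. For Cd79a the variance over the mean was 1.56 and 1.32, and for Cd79b 1.92 and 1.42. For Cd74, the invariant chain of class II presentation, it was 3.12 and 2.72, at other mean counts. Iglc1 and Iglc2 followed each other weakly from cell to cell, with a Spearman correlation of 0.10 in 1745 neonatal and 0.16 in 3320 adult kappa-led cells. Vpreb3 and Iglc1 had 0.20 and 0.03. Points of a library share its depth and free RNA, and these values are descriptions.

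Over all thinned cells, the genes most like the lambda sum among 3928 compared were Ighm, the IgM heavy chain (Spearman 0.29 in 2077 neonatal and 0.19 in 3611 adult cells), Ly6d, a surface protein of early B cells (0.23 and 0.12), and Cd79b, the second signalling partner of the receptor (0.24 and 0.11). For Igkc the nearest were H3f3a, Tsc22d3 and Ets1, with correlations between 0.09 and 0.13. These are weak values in sparse counts and no pattern is read from them.

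Transcription factors that act on light chain loci went both ways. Of 11 measured, 3 were at least 1.5-fold higher in the neonatal library, 1 in the adult library, and 7 within that range, against 12.2% and 7.82% of all genes in these directions, with a median log2 ratio of −0.03 against −0.13 for all genes. Irf4, which drives light chain transcription and later plasma cell differentiation, was at 192 and 68.0 CPM (log2 −1.50, −1.58 to −1.42). Spib, an Ets factor that can stand in for PU.1, had −0.90, and Tcf3, which encodes the E2A proteins that bind light chain enhancers, −0.89. Pou2f1 had 0.62, while Irf8, Pou2f2, Pou2af1, Pax5, Ikzf1, Ikzf3 and Spi1 lay between −0.43 and 0.19.

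Recombination genes were almost absent. Rag1, a subunit of the recombinase that joins light chain segments, had 51 UMIs in neonatal and 9 in adult cells, and Rag2, Dntt, Igll1 and Vpreb2 had none in either library, where a count of 0 allows up to 3 UMIs. Vpreb1 had 7 and 15. Only Rag1 of these 6 genes reached 50 UMIs.

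The partners of the light chains were measured in the same cells. Of 8 heavy chain constant genes 6 had at least 50 UMIs, and 5 of these were at least 1.5-fold higher in the adult library, against 7.82% of all genes, with Ighg2c among them on the strength of the 1 adult cell described above. Ighd, the IgD heavy chain, went from 473 to 714 CPM (log2 0.60, just past 1.5-fold), and Ighm from 4482 to 3245 CPM (log2 −0.47). Ighg2b, Ighg3 and Igha were under 10 CPM in both libraries, with 293, 291 and 301 adult UMIs. Whether a few cells gave most of these UMIs was not tested. None of the 5 antibody secretion genes (Jchain, Xbp1, Sdc1, Prdm1 and Mzb1) passed 1.5-fold, with log2 ratios from −0.20 to 0.57. Cd79a was level (log2 −0.02), and Cd79b had −0.51, beside −0.52 for the lambda sum.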

How the data were processed

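The libraries of heart B cells (10x Genomics, 3′ chemistry) were 1 neonatal and 1 adult. Per the labels and file headers, the authors aligned reads to mm10 and counted UMIs with Cell Ranger (3.0.2 in the file headers). The deposited values are raw counts, whole UMIs per gene and barcode, for all barcodes. The annotation and read length are not given in the sources used here. The 3 antibody tag rows held 1 neonatal and 2 adult UMIs in the analysed cells and were not used. No doublet caller was run.

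Droplets with at least 2000 gene UMIs, at most 10% mt- UMIs and at least 1 Cd79a UMI were kept. Levels are CPM, summed UMIs scaled to the gene UMI total, with exact Poisson intervals, shares have exact Clopper-Pearson intervals, and ratios have exact conditional binomial intervals (Python 3.11.15, scipy 1.17.1). The ratio was computed for all genes. No test was made, since each age has 1 library. Free RNA was the mean UMI count of droplets of ranks 45000 to 90000. Thinning drew 2000 UMIs per cell without replacement. Sequences came from the GENCODE transcripts of GRCm38. The calculations were tested on simulated counts.

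The members, gene lists and named genes were chosen with earlier results of these data known. Named genes were the 4 members, the lambda variable genes, receptor partners, Vpreb3, Cr2, Fcer2a, 4 lists (recombination, transcription factors, heavy chain constant genes, antibody secretion), the 3 genes most correlated with each chain and the sex genes. The division at 50% lambda, the droplets without Cd79a and Cd79b, the ratios within classes, and the removal of Xist and Y droplets or of the 5 highest Igkc cells, and the removal of Jchain droplets within the lambda class were chosen after seeing the data. Alternatives covered cell filters, depth, scaling, class limits and free RNA.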

Additional observations from a re-analysis of the deposited data

Results flagged for a closer look

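Iglc4 (chr16:19194999-19195312, minus strand), a lambda constant gene outside the comparisons above, had 27 UMIs in neonatal and 106 UMIs in adult cells, above the 3 UMIs that a count of 0 allows. The UMIs were scattered: in the neonatal library 27 cells had 1 each, and in the adult library 103 cells had a UMI and none more than 2. An Iglc4 UMI was present in 0.860% (0.482 to 1.41%) of neonatal and 2.65% (2.13 to 3.26%) of adult kappa-led cells, and in 3.95% (1.46 to 8.39%) and 4.73% (1.92 to 9.50%) of lambda class cells. Windows of 91 bases of Iglc4 differed from Iglc1 by at least 8 bases, and windows of 50 bases by at least 3 (median 7). The share of free RNA in these UMIs was not tested.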

How the results depend on the processing

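No paired analysis was possible because each age has 1 library, and no library could be left out for the same reason. Of 270 values recomputed, 168 stayed inside the counting interval of the reported value and 102 did not. These intervals are narrow, so small shifts count as moves. A log2 value took the other sign in 17 cases. In 2 of these the reported difference was past 1.5-fold: the Iglc1 log2 ratio in lambda class cells alone, 0.14, and Iglc3 by Cr2 in 5 neonatal cells, from −0.72 to 0.0827 as sequenced. Iglc1 stayed lower in the adult library under every other cell filter, scaling and weighting tried over all cells (−1.25 to −0.23). The Igkc and lambda sum log2 ratios were, in this order, 0.014 and −0.33 with at least 5000 UMIs, 0.0498 and 0.0889 with at most 5% mt- UMIs (60 and 156 cells), 0.0595 and −0.48 with no mt- limit, 0.0440 and −0.74 when thinned, 0.15 and −0.57 without shared barcodes, 0.12 and −0.64 without the 5% deepest droplets, −0.0075 and −0.58 without Jchain droplets, 0.0138 and −0.53 without the 5 cells highest in Igkc, 0.18 and −0.37 with median-of-ratios scaling, 0.0372 and −0.76 as a mean over cells, −0.0776 and −0.40 in kappa-led cells, 1.13 and 0.0672 in lambda class cells, and 0.58 and −0.17 in lambda class cells without Jchain. Igkc had 0.0164 without Xist and Y droplets. The neonatal and adult dual class shares were 78.0% and 67.9% with at least 5000 UMIs, 67.1% and 45.8% with no mt- limit, 17.2% and 6.84% when thinned, 70.3% and 46.0% after subtracting free RNA, 49.9% and 27.5% with a lesser chain of 20%, 83.8% and 70.01% with 3 UMIs of each chain, and 21.8% and 18.2% with 30. The neonatal dual share was 60% with at most 5% mt- UMIs, and the adult one 46.7% without the deepest droplets and 52.3% with a lesser chain of 5%. The neonatal lambda class share was 5.16% with at least 5000 UMIs and 9.24% with a lesser chain of 20%. The adult one was 1.92% with at most 5% mt- UMIs, where Iglc1 led in 100% of the class, 3.102% with a lesser chain of 5% and 5.18% with 20%. As sequenced, the Iglc1 log2 difference by Vpreb3 was 0.63 and 0.96, and in adult cells 0.24 by Fcer2a and 0.21 by Cr2. With free RNA read from droplets of 20 to 200 UMIs, lambda in kappa-led cells was 71.0 and 66.9 times and Igkc in lambda class cells 2.91 and 4.39 times the free level. The latter was 3.30 times in adult cells without Jchain droplets. The cause of these moves was not tested. Both depth and the class limits moved the dual class share and the neonatal lambda class share, and they were not compared at matched depth.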
